A study of Homo sapiens with 24 samples.

Results

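The SYK inhibitor Entospletinib (Ento) was read as a single agent in DG-75, a human Burkitt lymphoma cell line. The 3 arrays of DG-75 cells exposed to 1 µM Ento for 72 h were set against the 3 arrays of DG-75 cells kept in the solvent DMSO for the same time, which makes 6 of the 24 arrays of the series. All 25575 rows of the expression table, which carry 25161 gene symbols, entered the comparison. The series holds 8 groups of 3 arrays, namely DMSO, Ento, the BET inhibitor AZD5153 (AZD, 0.01 µM) and Ento+AZD at the same doses, each in DG-75 and in SU-DHL-4, a diffuse large B-cell lymphoma line. The design text calls the 3 arrays of a group biological triplicates, and DG-75 is 1 line from 1 tumour, with no normal B cell beside it.

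SYK is the tyrosine kinase that binds the phosphorylated tails of CD79A and CD79B when the B-cell receptor is engaged, and it passes the signal on to BLNK, BTK and PLCG2 and from there to calcium, NF-kB and ERK. Early genes such as EGR1 are transcribed when these relays fire, and SYK inhibitors were developed to interrupt them in B-cell malignancies. Interferon-stimulated genes are a separate programme, switched on when a transcription factor complex that holds IRF9 binds a short response element in their promoters, and their products restrict viruses.

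Interferon-stimulated genes hold several of the larger differences described below, and the promoters of several carry the letters of that response element, 2 copies of GAAA with 2 bases between them (GAAANNGAAA, searched on both strands). RefSeq promoter windows of build GRCh38.p14, each 300 bases long with 250 bases before the start site, were found for 54 of the 70 members measured. The letters were present in 41 of their 74 windows (55.4%), against 1255 of all 35116 windows (3.57%). The windows below are examples from members with positive values under Ento that hold the letters, and the capitals mark the match in the direction of the gene, so that a match on the opposite strand reads as TTTC, 2 bases and TTTC. They lie at chr1:78620365-78620394 (IFI44L), chr1:78649761-78649790 (IFI44), chr14:94110631-94110660 (IFI27) and chr21:41431844-41431873 (MX1), all on the plus strand, and at chr2:162318818-162318847 on the minus strand (IFIH1).
IFI44L: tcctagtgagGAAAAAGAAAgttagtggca
IFI44: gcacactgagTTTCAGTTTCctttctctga
IFI27: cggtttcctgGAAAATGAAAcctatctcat
MX1: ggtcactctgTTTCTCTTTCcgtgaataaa
IFIH1: tcgctttcctTTTCTGTTTCccgcggtgtc
Of other members described below, OAS1 and IRF9 had windows without the letters, and OAS2, USP18 and IRF7 had no entry.

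Few genes of DG-75 differed from DMSO beyond the spread between arrays under Ento alone. The rule for a call asked for a fold change above 2 together with an adjusted p under 0.05 (limma, Benjamini-Hochberg over all rows). It called 1 gene, which is 0.00391% of the rows, higher under Ento with an adjusted p of 0.00214. The next smallest adjusted p was 0.525. The fit held the replicate number as a block. Without it limma called 0 genes (672 rows at an unadjusted p under 0.05), as it did with the 6 arrays fitted alone (821 rows) and with any 1 replicate number left out (571 to 992 rows). At an unadjusted p under 0.05 there were 718 rows, 306 higher (1.2% of rows) and 412 lower (1.61%), where 1279 rows would be reached by a uniform p. The median change over all rows was -0.004 on the log2 scale, 98.8% of rows differed by less than 0.5, and 10 rows differed by more than 1, of which 9 were higher.

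The design had the precision to limit most changes. The median standard error of a log2 change was 0.175, and the 95% interval lay wholly between -1 and 1 in 25003 rows (97.8%). A 2-fold change was therefore outside the interval for most genes, while smaller changes remained within it. Of the 70 interferon-stimulated genes described below, 44 had such an interval and 26 did not. Array medians of the 6 arrays lay between 5.05 and 5.14 log2 units, correlations between arrays of 1 group lay between 0.9861 and 0.9925 in these 2 groups, and no 2 arrays held the same values.

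**Figure D1:**
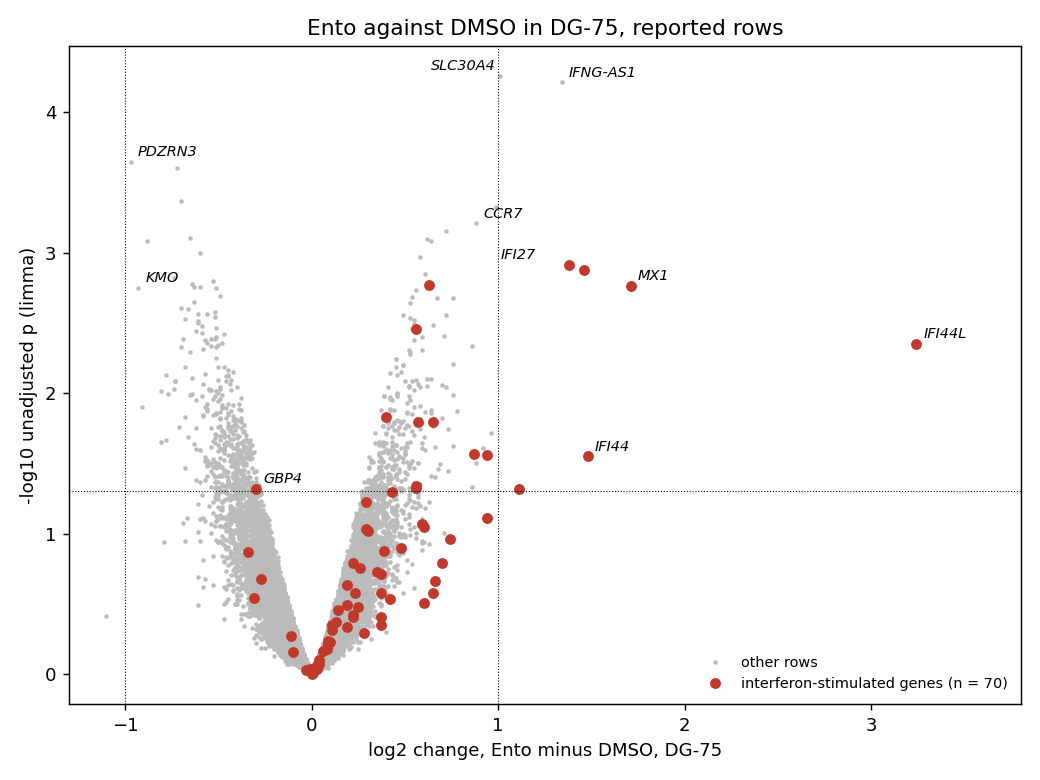
Log2 change under Ento in DG-75 (x axis) against the unadjusted limma p as -log10 (y axis) for the 25573 rows reported, without the gene called and 1 further row, with interferon-stimulated genes in red. Dotted lines mark a p of 0.05 and changes of -1 and 1, and IFI44L stands apart at 3.24.

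The labelled cell type was checked first. B-cell identity markers averaged 8.61, 8.35 and 8.53 in the DMSO arrays and 8.61, 8.49 and 8.66 under Ento. Under DMSO their means ran from 6.26 to 11.32, the last that of CD79A. T and NK cell markers averaged 3.69, 3.51 and 3.55 in the DMSO arrays and 3.51, 3.60 and 3.63 under Ento, and 0 of the 9 had an unadjusted p under 0.05. The 7 myeloid markers averaged 4.34, 4.48 and 4.39 under DMSO and 4.40, 4.36 and 4.50 under Ento, with 0 under that p. The highest single member under DMSO averaged 5.87 among T and NK markers and 5.72 among myeloid markers. Array values have no true zero, so these levels do not by themselves show expression.

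The target and its partners stayed near their DMSO level. SYK measured 8.76, 8.89 and 8.52 log2 units in the DMSO arrays and 8.85, 8.96 and 8.60 under Ento. The groups overlapped, and the change was 0.08 (SE 0.144, 95% interval -0.24 to 0.39). An inhibitor of kinase activity need not alter the transcript, so this value is no check of the exposure.

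Receptor subunits, kinases and relays also had no member called. CD79B, a signalling subunit of the receptor, differed by 0.33 (interval -0.08 to 0.75) and CD79A by 0.13 (interval -0.18 to 0.45). Without the third Ento array these values were 0.14 and 0.01, and without the second the CD79A value was 0.26. The kinases BTK and LYN differed by -0.09 and 0.00, the adaptor BLNK by -0.04 and the phospholipase PLCG2 by -0.03. Of the 13 genes of the receptor and its kinases, 0 had an unadjusted p under 0.05, their median change was 0.003, and all 13 intervals lay between -1 and 1. In 2 of them (15.4%), the kinases LCK (-0.16) and TEC (-0.27), every Ento array lay below every DMSO array, where 3.56% of all rows did so. The 18 adaptors and enzymes had a median of -0.015 and also 0 members under that p. Among the 31 relays of calcium, NFAT, NF-kB and ERK the median was -0.022, with 0 members under that p and all 31 intervals within 1 of 0.

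Inhibitory receptors and early genes held 1 member each at an unadjusted p under 0.05, both lower, which is 5.56% of 18 and 2.56% of 39 members beside 1.61% of all rows. CD72, a receptor that dampens B-cell receptor signals, measured 8.26, 7.94 and 8.26 under DMSO and 7.50, 7.45 and 8.05 under Ento. The third Ento array lay within the DMSO range, and the change of -0.49 (SE 0.170, unadjusted p = 0.015 in the limma fit, adjusted p = 1) was not called. EGR1, the early transcription factor, measured 6.04, 6.51 and 5.85 under DMSO and 5.28, 5.91 and 5.23 under Ento. Here the second Ento array overlapped the DMSO arrays, and the change was -0.66 (SE 0.245, unadjusted p = 0.0205 in the limma fit, adjusted p = 1). Without the third Ento array the EGR1 change was -0.51. The other 38 early genes had a median of -0.035 and values from -0.34 to 0.39, with 0 at an unadjusted p under 0.05.

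Transcription factors of the germinal centre showed small values in both directions. MYC, the oncogene translocated in Burkitt lymphoma, differed by 0.03 (interval -0.24 to 0.29), and BCL6, the repressor that holds the germinal centre state, by -0.04 (interval -0.35 to 0.27). ETS1, which restrains plasma cell formation, measured 9.56, 9.57 and 9.39 under DMSO and 9.86, 9.94 and 9.75 under Ento. Its groups did not overlap, and the change was 0.34 (unadjusted p = 0.0192 in the limma fit). CIITA, the activator of MHC class II genes, differed by -0.33 (unadjusted p = 0.0293 in the limma fit), while the 20 MHC genes had a median of -0.055. Neither was called.

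Cell cycle genes had medians near 0. The 38 S-phase entry genes had a median change of -0.009 and the 28 mitosis genes one of -0.017. In both lists 0 members reached an unadjusted p under 0.05, and the interval of every member, 38 of 38 and 28 of 28, lay between -1 and 1. The largest absolute changes were those of E2F7, a repressor of E2F targets, at -0.32 and of the mitotic phosphatase CDC25C at -0.35. For Ento+AZD against AZD the medians were -0.192 and -0.166, with 4 of 38 and 1 of 28 members positive, beside a median of -1e-04 over all rows. In both lists 0 members had every Ento+AZD array below every AZD array, and the list means of these arrays overlapped. That comparison called 0 genes.

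The interferon-stimulated genes had the highest median of the 25 lists. The lists were chosen with earlier results of these data known, so this rank is a description and no test. Of the 70 measured, 61 were higher and 9 lower under Ento, with a median change of 0.284 and a range from -0.34 to 3.24, beside a median of -0.004 over all rows. The medians of the other 24 lists lay between -0.154 and 0.127. At an unadjusted p under 0.05, 15 members (21.4%) were higher, where 1.2% of all rows were. The member on the lower side was GBP4, an interferon-induced GTPase (-0.30, unadjusted p = 0.0478 in the limma fit), named here after its value was seen. In 10 members (14.3%) every Ento array lay above every DMSO array, where 3.09% of all rows did so and 3.56% did so the other way. By the adjusted rule 0 members were called.

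**Figure D2:**
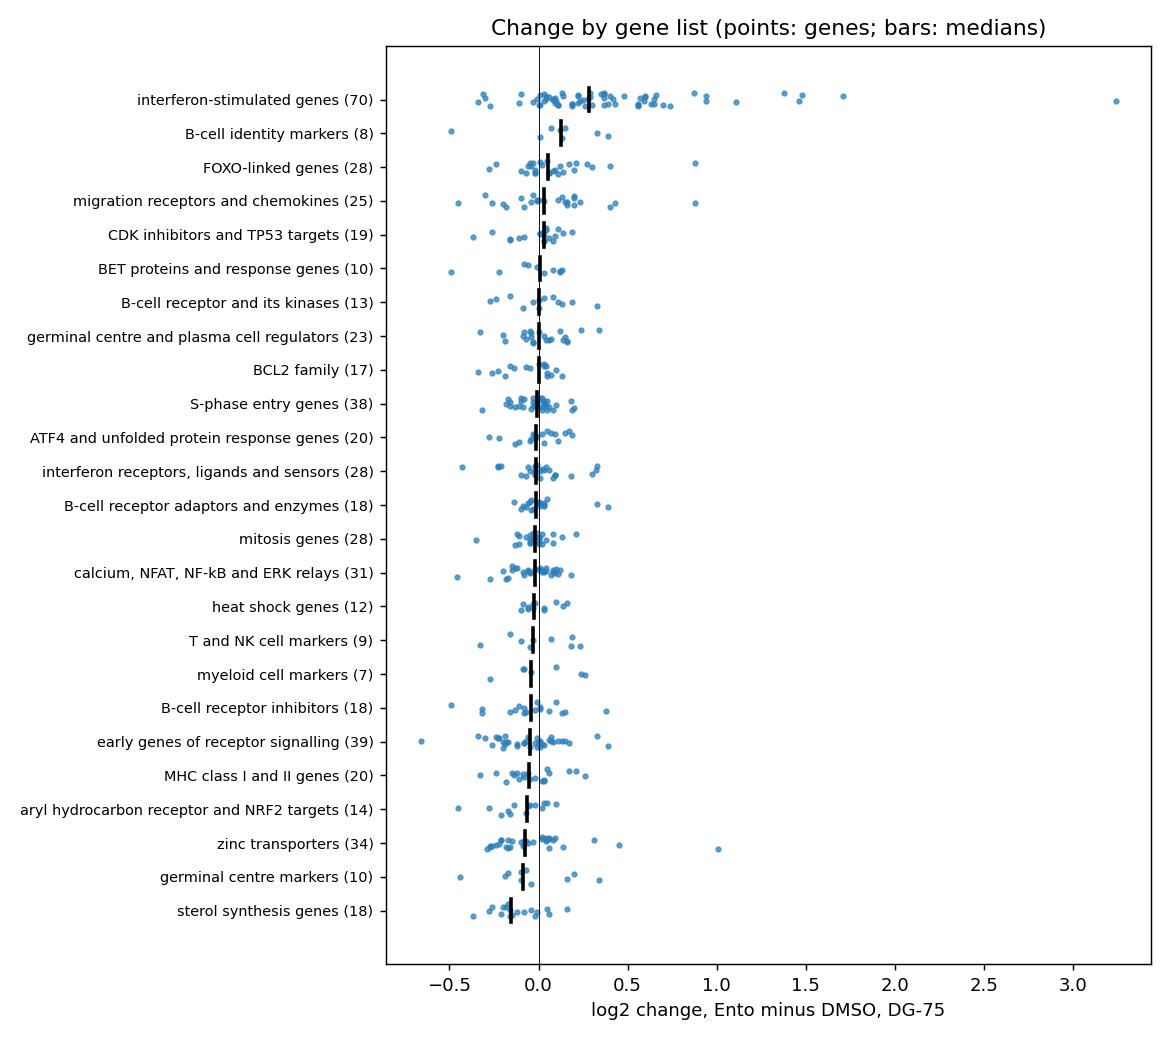
Log2 change under Ento in DG-75 for the members of each gene list, with list sizes in brackets, where points are genes and bars are medians. The interferon-stimulated genes have the highest median, at 0.284, and the sterol synthesis genes the lowest, at -0.154. The lists were chosen with earlier results of these data known.

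IFI44L, an interferon-induced gene linked to feedback on the response, had the largest change of the list. It measured 3.04, 2.36 and 6.83 log2 units in the DMSO arrays and 8.73, 6.04 and 7.16 under Ento. The third DMSO array was high and lay above the second Ento array, so that the groups overlapped. The change was 3.24 (SE 0.909, 95% interval 1.24 to 5.23, unadjusted p = 0.00443 and adjusted p = 1 in the limma fit). Leaving out 1 array at a time gave values from 2.41 to 4.23. The first and second DMSO values lay below every array median (4.89 to 5.14) and were not shown to be above background, so the size is not exact. The same limit holds for the first and second DMSO values of MX1, IFI44 and IFI27 below.

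The antiviral effectors MX1 and OAS1 also had their highest DMSO value in the third array and their lowest Ento value in the second. MX1, a GTPase that blocks viral nucleocapsids, measured 4.36, 3.84 and 6.07 under DMSO and 7.26, 5.16 and 6.98 under Ento, a change of 1.71 (SE 0.416). OAS1, which makes the activator of RNase L, measured 6.60, 6.62 and 7.89 under DMSO and 8.92, 7.72 and 8.86 under Ento, a change of 1.46 (SE 0.343). In both genes the third DMSO array overlapped the second Ento array. OAS2, a relative of OAS1, measured 6.19, 5.26 and 6.70 under DMSO and 7.42, 6.74 and 6.82 under Ento. Its groups did not overlap, and its change was 0.94 (SE 0.485, interval -0.12 to 2.01).

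IFI44 and IFI27 are further induced genes of this programme. IFI44 measured 4.42, 3.75 and 6.34 under DMSO and 7.52, 5.21 and 6.22 under Ento, with a change of 1.48 (SE 0.586), which was 0.78 without the first Ento array. IFI27 measured 4.87, 4.74 and 5.80 under DMSO and 7.24, 5.12 and 7.20 under Ento, with a change of 1.38 (SE 0.321). For IFI27 the second Ento array lay with the DMSO arrays and the other two stood above all of them.

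Regulators of the response showed the same arrays at the extremes. USP18, which switches off the interferon receptor, measured 2.07, 2.10 and 3.99 under DMSO and 4.73, 2.71 and 4.05 under Ento, with a change of 1.11 (SE 0.497) that was 0.51 without the first DMSO array. Every USP18 value of both groups lay below every array median and was not shown to be above background, so this size is not exact. IRF9, a DNA-binding factor of the response, measured 6.35, 6.19 and 7.13 under DMSO and 8.08, 7.12 and 7.28 under Ento, with a change of 0.94 (SE 0.371). PARP12, an antiviral ADP-ribosyltransferase, differed by 0.63 (SE 0.153, unadjusted p = 0.00171 in the limma fit). Of other well-known members, chosen after their values were seen, IFIT1 differed by 0.65, IFIT3 by 0.60, ISG15 by 0.48 and IRF7 by 0.19, each with an interval that included 0, and the RNA sensor IFIH1 differed by 0.87 (interval 0.12 to 1.63). Without the first DMSO array these values were 0.13 for IFIT1, 0.03 for IFIT3, 0.17 for ISG15 and -0.07 for IRF7, and without the third DMSO array they were 1.30, 0.94, 0.70 and 0.36.

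**Figure D3:**
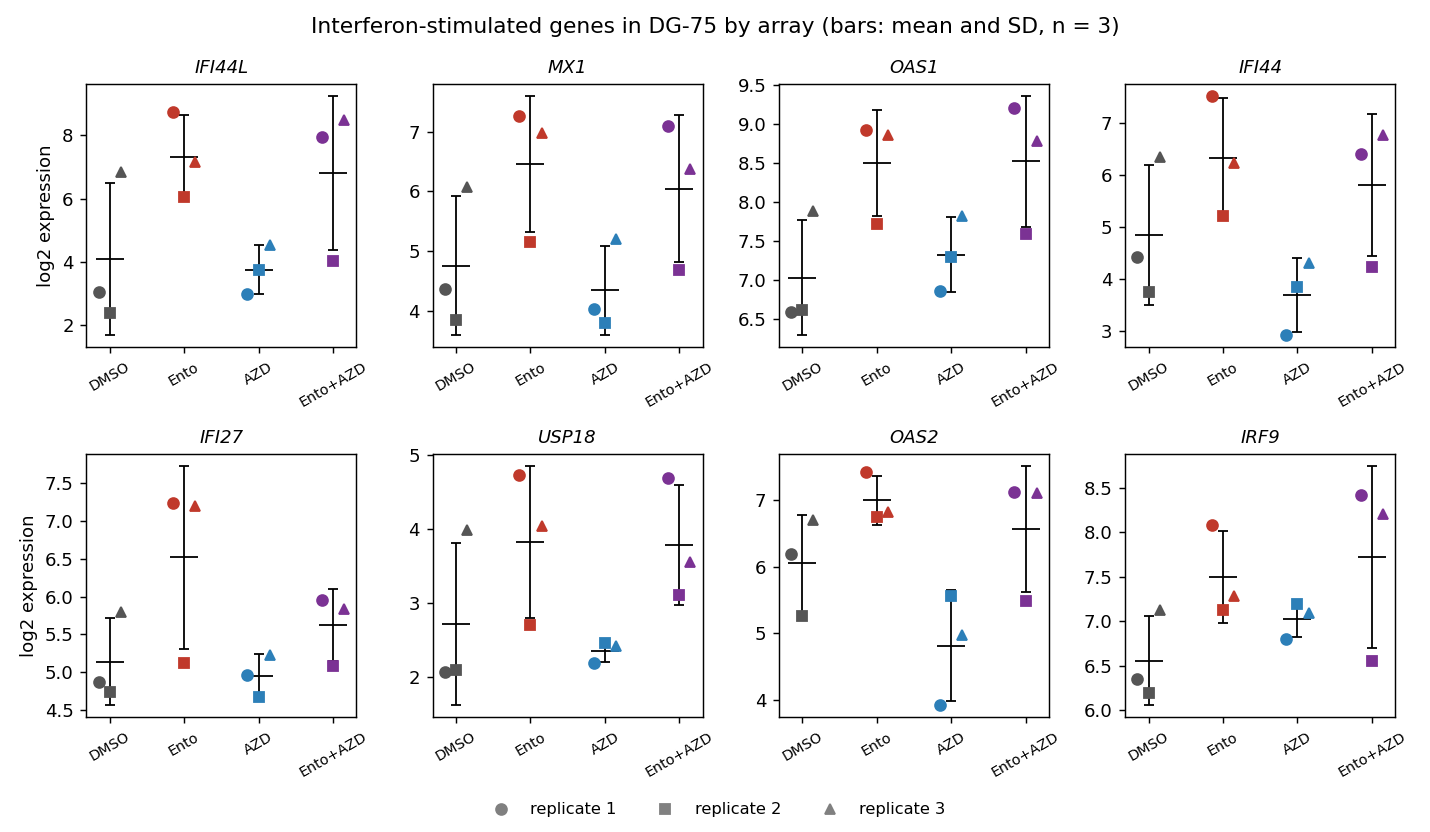
Log2 expression of 8 interferon-stimulated genes in the 12 DG-75 arrays by treatment, with symbols for replicate number and bars for mean and SD (n = 3). The third DMSO array is the highest of its group in all 8 panels, and the second Ento array is the lowest of its group in all 8.

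The level of the list also varied between arrays of 1 group. The mean over its 70 members was 5.45, 5.18 and 5.93 log2 units in the DMSO arrays and 6.22, 5.59 and 5.94 under Ento. DMSO replicate 3 thus lay above Ento replicate 2 and level with Ento replicate 3, and the groups overlapped. Taken by replicate number, 62, 52 and 37 of the 70 members were higher under Ento, with medians of 0.51, 0.30 and 0.02. Same-numbered arrays were not shown to be pairs. Without DMSO replicate 1, 7 of the 70 members were higher at an unadjusted p under 0.05 in limma, where 1.05% of all rows were. The list median was then 0.151. Without Ento replicate 1 these values were 7, 1.11% and 0.226, and without DMSO replicate 3 they were 16, 1.51% and 0.386. What set the level of single arrays was not tested.

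Upstream members of the pathway had values near 0. The 28 interferon receptors, ligands and sensors had a median change of -0.015, with 0 members at an unadjusted p under 0.05. IFNAR1 and IFNAR2, the receptor chains for type I interferon, differed by 0.01 and -0.02, and the ligand transcripts IFNB1 and IFNG by -0.02 and -0.06. The largest absolute value was that of the ligand transcript IFNK (-0.43, interval -1.02 to 0.16), followed by the nucleic acid sensors TLR7 (0.33) and CGAS (0.32).

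Among members matched to a promoter window, the 36 with the response element letters had a median change of 0.395 and the 18 without them one of 0.205. A match is a description of the letters and not of binding.

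The same exposure in the presence of AZD gave a second reading in DG-75 on 6 other arrays, which carry the same replicate numbers. For Ento+AZD against AZD 0 genes were called in the limma fit, and 1030 rows had an unadjusted p under 0.05. Interferon-stimulated genes were higher in 58 of 70 members with a median of 0.439. In 10 members (14.3%) every Ento+AZD array lay above every AZD array, where 3.81% of all rows did so. By array the list mean was 5.16, 5.25 and 5.40 under AZD and 6.27, 5.28 and 6.0 under Ento+AZD, so the second Ento+AZD array lay inside the AZD range. The first array was the highest and the second the lowest under Ento+AZD, as under Ento alone. The third was the highest under AZD, as under DMSO. Whether both settings vary independently was not tested. IFI44L measured 2.98, 3.75 and 4.52 under AZD and 7.94, 4.01 and 8.50 under Ento+AZD, a difference of 3.07, and MX1 differed by 1.71. The AZD values of IFI44L lay below every array median and were not shown to be above background, so the size of 3.07 is not exact. In all, 54 members were positive in both settings. Over all 25575 rows the correlation of these changes with those of Ento alone was 0.172, and it was 0.355 over the 12788 rows at or above the median level; no array is shared between them, and rows are not independent replicates.

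Averaging both settings, 6 arrays with Ento against 6 without and including the 6 arrays above, called 1 gene, the same as above (0.00391% of rows), and the next smallest adjusted p was 0.1. With any 1 replicate number left out limma called 0 genes for this average, with 647 to 1092 rows at an unadjusted p under 0.05. At an unadjusted p under 0.05, 35 of the 70 interferon-stimulated genes (50%) were higher and 1 lower, where 2.09% of all rows were higher and 2.32% lower. The averaged change was 3.15 for IFI44L (SE 0.643, adjusted p = 0.38 in limma), 1.71 for MX1 (SE 0.294, adjusted p = 0.321 in limma) and 1.33 for OAS1 (SE 0.243, adjusted p = 0.38 in limma). These genes were called in limma when all 24 arrays were fitted together (5 genes in all), and 0 genes were called without the replicate number in the fit (1032 rows at an unadjusted p under 0.05). The fit of 24 arrays takes its spread from both lines. The list mean was 5.52, 5.61 and 5.5 in the SU-DHL-4 DMSO arrays, beside 5.45, 5.18 and 5.93 in those of DG-75. The calls thus depend on the fit. Of the 13 genes of the receptor and its kinases, 3 were lower at an unadjusted p under 0.05 (LCK at -0.32, TEC at -0.27 and FGR at -0.24) and 1 was higher (CD79B at 0.43), none of them called. The interaction between both agents called 0 genes in limma, with 672 rows at an unadjusted p under 0.05.

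Outside the interferon programme, SLC30A4 and IFNG-AS1 had the smallest p-values of the genes reported. SLC30A4, a transporter that moves zinc out of the cytosol, measured 5.89, 5.48 and 6.16 under DMSO and 6.91, 6.71 and 6.95 under Ento. All 3 Ento arrays lay above the DMSO arrays, and the change was 1.01 (SE 0.160, adjusted p = 0.525 in limma). The other 33 zinc transporters and metallothioneins had a median of -0.080, and 1 of them (3.03%, beside 1.2% of all rows) was higher at an unadjusted p under 0.05 (SLC39A12, 0.45, a zinc importer). On top of AZD, SLC30A4 differed by 0.68, and in SU-DHL-4 by 1.32.

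IFNG-AS1, a long non-coding RNA beside the interferon gamma gene, measured 3.83, 4.27 and 4.50 under DMSO and 5.55, 5.02 and 6.08 under Ento. The groups did not overlap, and the change was 1.34 (SE 0.215, adjusted p = 0.525 in limma). On top of AZD it differed by 0.41 (interval -0.07 to 0.88). Its DMSO values lay below every array median, so the size of 1.34 is not exact.

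CCR7 and LTB belong to the organisation of lymphoid tissue. CCR7, the chemokine receptor that guides lymphocytes into lymph nodes, measured 4.71, 3.69 and 4.90 under DMSO and 5.67, 4.82 and 5.44 under Ento. The second Ento array lay between the DMSO arrays, and the change was 0.88 (SE 0.186), with 1.16 on top of AZD and an average of 1.02 (adjusted p = 0.1 in limma). The first and second DMSO values of CCR7 lay below every array median, so the size of 0.88 is not exact. LTB, which encodes lymphotoxin beta, measured 6.48, 6.61 and 6.59 under DMSO and 6.94, 7.04 and 7.37 under Ento. Its groups did not overlap, and the change was 0.56 (SE 0.137). Of the 25 migration receptors and chemokines, 2 were higher (8%, beside 1.2% of all rows) and 1 lower (4%, beside 1.61%) at an unadjusted p under 0.05, with a median of 0.032.

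The remaining genes with small p-values on the higher side included OSR2, a zinc finger transcription factor (0.62), PECR, a peroxisomal reductase (0.58), and PALM2AKAP2 (0.61). The last was read from the row with the highest level, and its 2 other rows gave 0.20 and -0.02.

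On the lower side no gene was called. PDZRN3, a ubiquitin ligase, measured 4.75, 4.43 and 5.74 under DMSO and 3.85, 3.94 and 4.22 under Ento. Its groups did not overlap, and the change was -0.97 (SE 0.181, unadjusted p = 0.000225 and adjusted p = 1 in the limma fit). The Ento values of PDZRN3 lay below every array median, so this size is not exact. KMO, an enzyme of tryptophan breakdown, measured 5.60, 4.69 and 6.37 under DMSO and 4.78, 3.89 and 5.21 under Ento. The groups overlapped, and the change was -0.93 (SE 0.227).

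Others were the non-coding HAGLR (-0.72), the endopeptidase PHEX (-0.65), the transcription factor ATOH8 (-0.63), the Notch ligand DNER (-0.61), the synaptic adhesion gene NLGN3 (-0.60) and the apolipoprotein APOM (-0.49). Several had no such value on top of AZD, where HAGLR differed by 0.33, PHEX by 0.14, NLGN3 by 0.61 and APOM by 0.01. The 18 sterol synthesis genes had the lowest list median, -0.154, with 15 negative and 0 at an unadjusted p under 0.05. HMGCS1, which opens the pathway, differed by -0.37 and the epoxidase SQLE by -0.28.

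**Figure D4:**
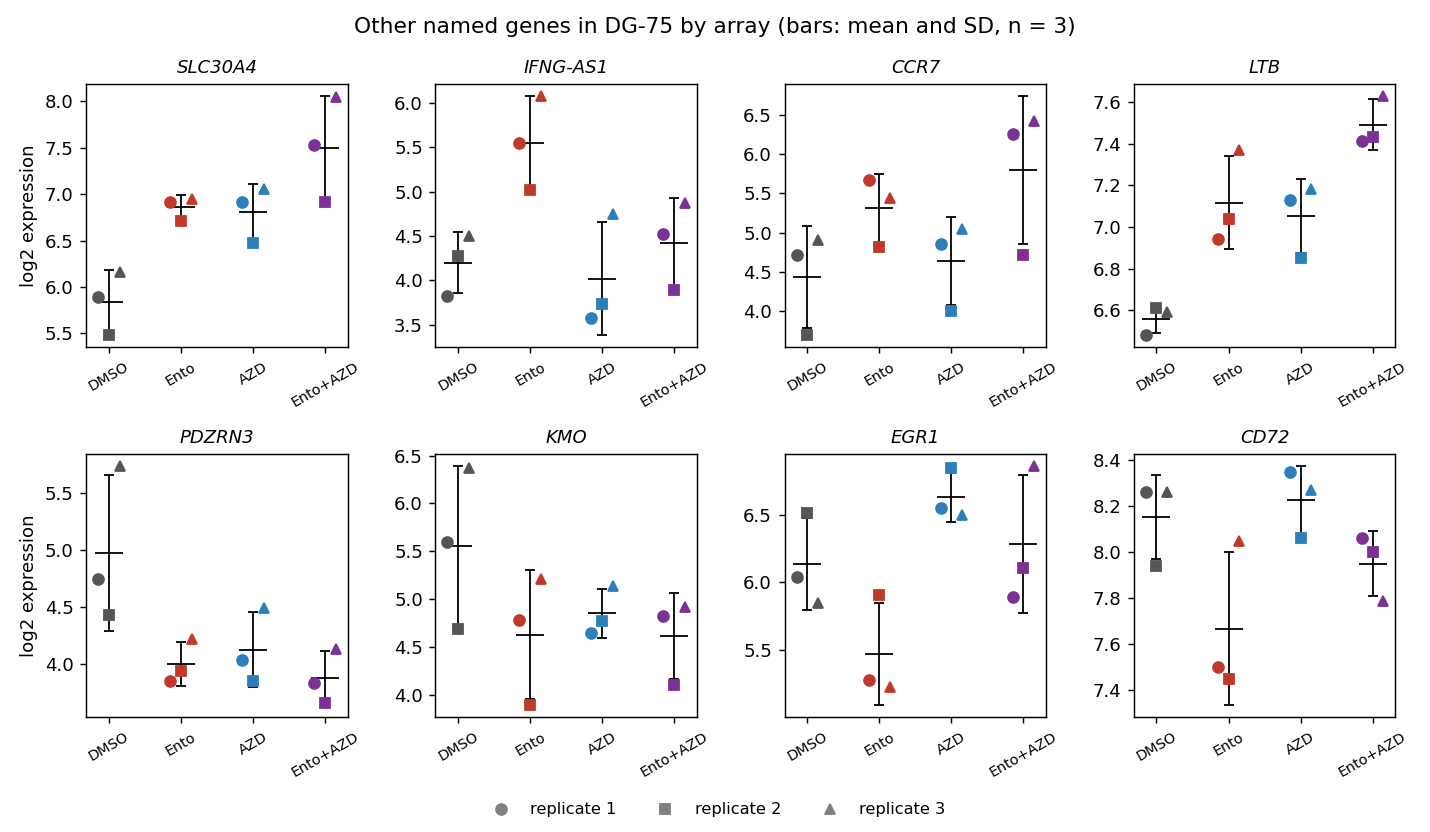
Log2 expression of 8 further genes in the 12 DG-75 arrays by treatment, with symbols for replicate number and bars for mean and SD (n = 3). SLC30A4, IFNG-AS1 and LTB separate Ento from DMSO upward and PDZRN3 downward, while CCR7, KMO, EGR1 and CD72 overlap.

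The same dose and time in SU-DHL-4 called 13 genes, 10 higher and 3 lower (0.0508% of rows). Of these, 12 are described in DG-75, where each had a smaller absolute change and an interval between -1 and 1. Since they were chosen for their change in SU-DHL-4, a smaller value elsewhere is no test, and 9 of the 12 had the same sign in both lines. LTB differed by 1.02 in SU-DHL-4 (adjusted p = 0.0413 in limma) beside 0.56 in DG-75.

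The difference between the lines was tested in 1 fit of both. It called 2 genes (0.00782% of rows), both with a larger change in SU-DHL-4. TMPRSS15, which encodes the intestinal protease enteropeptidase, measured 2.17, 2.10 and 2.54 under DMSO and 1.86, 2.30 and 2.14 under Ento in DG-75, and 2.71, 3.13 and 1.98 against 5.11, 4.98 and 3.95 in SU-DHL-4. The DG-75 groups overlapped and the SU-DHL-4 groups did not, and the difference of the changes was -2.24 (adjusted p = 0.000366 in limma). The DG-75 and SU-DHL-4 DMSO values lay below every array median (4.89 to 5.14) and were not shown to be above background, so the size of this difference is not exact. The non-coding LINC01781 differed by -0.21 in DG-75 and 1.21 in SU-DHL-4, a difference of -1.42 (adjusted p = 0.0266 in limma), and its DMSO means of 3.12 in DG-75 and 3.01 in SU-DHL-4 share this limit. With only the 12 DMSO and Ento arrays in the fit, limma called 0 genes for this difference, with 1270 rows at an unadjusted p under 0.05.

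For the interferon-stimulated genes no member was called in the difference between lines. In SU-DHL-4, 21 of the 70 were higher under Ento, with a median of -0.102, and 6 members (8.57%) had groups that did not overlap upward, where 4.05% of all rows did. Downward this held for 10 members (14.3%), where 9.33% of all rows did so. The median difference between lines was 0.381 for the list. IFI44L differed by 0.37 in SU-DHL-4 and MX1 by -0.37, and the differences from DG-75, 2.87 and 2.07, had adjusted p-values of 1 and 0.631 in limma.

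**Figure D5:**
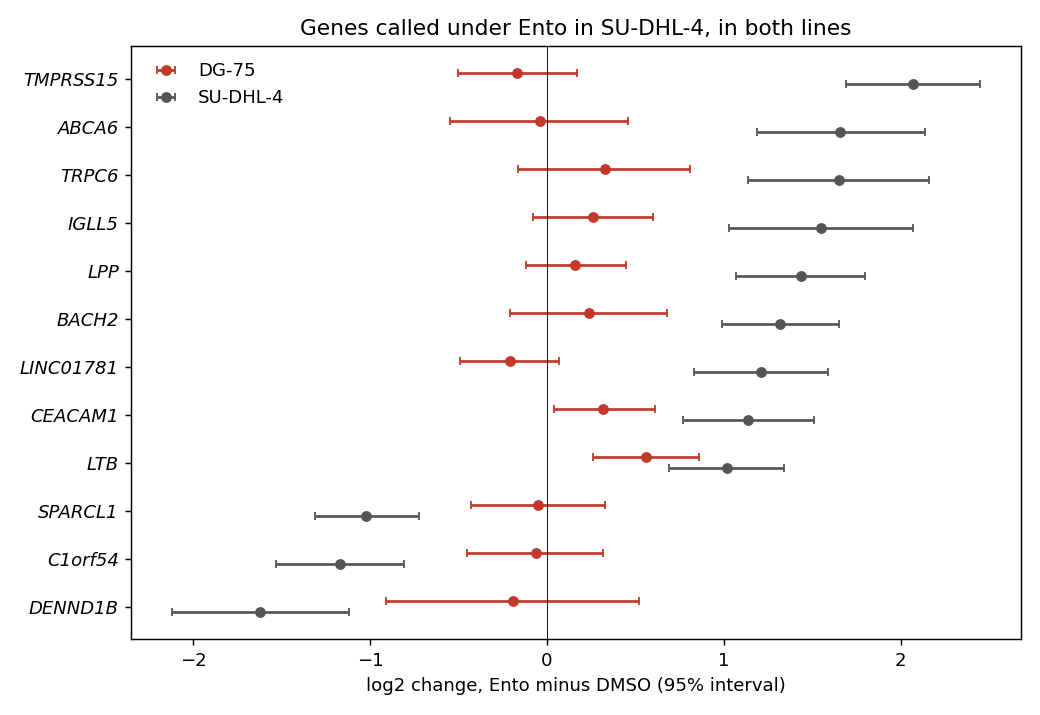
Log2 change under Ento with its 95% interval in DG-75 (red) and SU-DHL-4 (grey) for 12 genes called in SU-DHL-4. In DG-75 the values lie between -0.21 and 0.56.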

How the data were processed

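RNA of 2 B-cell lymphoma lines was hybridised to Clariom D arrays. The authors deposited log2 expression values, normalised by RMA and mapped to gene symbols per the study's methods, with limma named in the submitters' processing notes. The genome build of the probe mapping is not given in the sources used here. Columns were assigned to samples by name, and 0 columns were left unassigned. RMA makes arrays share 1 distribution of probe values, so a shift common to all genes cannot be seen.

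The 12 DG-75 arrays were fitted in limma 3.58.1 (R 4.3.3) with treatment and replicate number as a batch term, since the study's methods fit a batch. The methods speak of a cell batch effect for the principal component plots but do not say which arrays formed a batch. A call needed an absolute log2 change above 1 and an adjusted p under 0.05 (Benjamini-Hochberg over 25575 rows). Array number limits the precision. The line difference used all 24 arrays. For a symbol with several rows the row of highest mean was read. The script was tested on simulated data.

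Genes were named by rule: those called, the 12 per direction with the smallest p and the 6 with the largest change among rows with a mean of at least 4 and 1 sign in all same-numbered differences, the 3 largest of each of 25 lists (8 for interferon-stimulated genes), those called in SU-DHL-4, and a set of receptor and lymphoma genes. Members and lists were chosen with earlier results of these data known. Results for a few genes that this rule picks are not reported here. Alternatives changed the block, arrays in the fit, normalisation, row filter, variance prior, fold minimum, rows per symbol and arrays left out.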

Additional observations from a re-analysis of the deposited data

Results flagged for a closer look

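The change under Ento differed between the lines for TMPRSS15 by -2.24 on the log2 scale (DG-75 minus SU-DHL-4, adjusted p = 0.000366 in limma) and for LINC01781 by -1.42 (adjusted p = 0.0266 in limma). Both were singled out because the test of the difference itself passed, and the larger change lay in SU-DHL-4. The levels of both genes in DG-75 and in the SU-DHL-4 DMSO arrays lay below every array median and were not shown to be above background, so the sizes are not exact. TMPRSS15 was not called with no replicate block, and LINC01781 was called in 2 of 12 fits that left out 1 array. Neither was called with the 12 arrays compared alone or without replicate number 1 or 3.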

How the results depend on the processing

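The gene called under Ento in DG-75 rested on the replicate block: without it 0 genes were called (672 rows at an unadjusted p under 0.05), and with the 6 arrays compared alone also 0 (821 rows). Leaving out arrays or replicate numbers gave 0 to 1 genes, with 0 whenever a whole replicate number was dropped. The numbers share little else, as deviations of same-numbered DMSO and Ento arrays correlated at 0.172, 0.155 and -0.071, so over all rows they do not pair the arrays. For the averaged effect, 0 genes were called with no replicate block, 5 in 1 fit of all 24 arrays (CCR7, IFI44L, MX1 and OAS1 beside the first) and 2 with a trended robust prior (CCR7 added), and 0 to 3 with arrays left out; the 3 came without Ento+AZD replicate 2 (CCR7 and IFIH1 added) and 2 without Ento replicate 3. For the line difference, 1 gene was called with no replicate block (LINC01781), 0 with the 12 arrays compared alone, 1 among rows at or above the median level (LPP, neither of the genes reported) and 1 against a tested fold of 1.2 (TMPRSS15), and 0 to 2 with arrays left out. With single arrays left out, TMPRSS15 was called in 12 of 12 fits and LINC01781 in 2, with IFI27 called without DG-75 Ento replicate 2. Without replicate number 1 or 3 the line difference called 0 genes, and without number 2 only TMPRSS15. LPP was also called with array medians subtracted and with the trended robust prior, and LINC01781 was lost under that prior. The cause was not tested. The other settings kept each count within 1.5 times its value. Of 644 gene changes under 14 settings, 19 changed sign, all in 8 genes near 0 and all with arrays left out: BCL6 (-0.18 to 0.06), BLNK (-0.12 to 0.08), BTK (-0.16 to 0.00), IRF7 (-0.11 to 0.36), LYN (-0.02 to 0.02), MYC (-0.01 to 0.07), PLCG2 (-0.09 to 0.03) and SYK (-0.01 to 0.16). Of 84 list medians, 11 moved by more than the spread of the same-numbered differences, all with single arrays left out: S-phase entry genes (-0.096 to 0.097), mitosis genes (-0.134 to 0.107) and early genes of receptor signalling (-0.090 to 0.010). The interferon-stimulated median ranged from 0.151 to 0.462 with arrays or replicate numbers left out. No other gene crossed the threshold in that comparison. With 3 arrays a group, changes below about 2-fold are bounded only by their intervals.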
